A study of Mus musculus with 12 samples.

Results

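Genomic imprinting marks a small set of mammalian genes so that only the copy inherited from the mother, or only the copy from the father, is transcribed. The genes described here are 46 mouse imprinted genes, taken by name from a list of known imprinted loci, among 18193 genes that the array annotation names. Of the 46, 42 had at least 1 probe set annotated to that gene alone (110 probe sets), and 37 had enough signal to be tested among 12280 genes. The cells were mouse embryonic stem cells in neuronal differentiation, measured on 12 Affymetrix arrays in 4 groups of 3 samples: CAG150 cells at day 6, CAG150 cells at day 4, HM1 cells at day 6 and HM1 cells at day 4. HM1 is a mouse embryonic stem cell line. CAG150 cells carry expanded CAG repeats, per the title of the series, and the labels do not name the gene that carries them. Each condition was represented by a single line, and the labels do not say whether a group's samples were grown apart, so every p-value below reflects only the spread among these samples. Groups follow the sample titles. The descriptions of the HM1 day 6 samples give day 4, and the descriptions of all day 6 samples give replicate 1.

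Imprinted genes lie in clusters, each governed by a control region whose DNA is methylated on the copy from only one parent. Maternally expressed genes such as Cdkn1c, Phlda2 and Grb10 tend to restrain growth of the embryo and placenta, and paternally expressed genes such as Igf2 and Peg3 tend to favour growth or nutrient uptake. Some use their alleles differently in the nervous system: Grb10 is transcribed from the maternal copy in most tissues but from the paternal copy in neurons, and Ube3a is maternal in neurons but biallelic elsewhere. The arrays measured the RNA of both copies together, and neither allele of origin nor methylation was measured. Of the 46 genes, 21 are known as maternally expressed in mouse (16 tested), 20 as paternally expressed (16 tested), and 5 depend on isoform or tissue and were kept apart (Ddc, Copg2, Blcap, Gnas and Inpp5f, all tested). Tissue matters within the maternal class too, as for Grb10, Ube3a and Commd1. A class is the one a gene is known by, not the copy it used in these cells. Slc22a18, Zim1, Rasgrf1, Ascl2 and Dcn lay below the signal filter, a mean intensity of 11.9. H19, Dio3, Rtl1 and Zrsr1 had no probe set annotated to that gene alone.

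Levels below are array intensities on a linear scale, from the probe set of each gene with the highest mean log2(intensity + 16), called its brightest, and differences are of log2(intensity + 16) ± SE with limma's p-value adjusted over all 12280 genes. Folds below are taken from these log2 differences, so they include the added 16 and are smaller than ratios of the printed intensities. The threshold for a call was an adjusted p of 0.05. The number of arrays limits the precision. Array medians lay between 19.2 and 25.9. Markers of other cells differed between the groups. The summed intensity of 10 neuron markers, all above the filter, was 11601 to 12381 in CAG150 at day 6 and 2268 to 2566 at day 4, against 7628 to 8979 in HM1 at day 6 and 3452 to 3748 at day 4. Such a sum follows its brightest members, and single markers can go the other way. Tested singly at day 4, 4 of the 10 neuron markers were higher and 2 lower in CAG150, with a median log2 difference of 0.29. Fibroblast and smooth muscle markers, of which 6 of 8 were above the filter and Postn and Pdgfrb were not, summed to 246 to 278 in CAG150 at day 6 and 419 to 494 at day 4, against 4482 to 5404 and 2963 to 3507 in HM1. For visceral endoderm 6 of 10 markers were above the filter, and the defining genes Afp, Ttr, Apoa1 and Amn were not. All 10 together summed to 217 to 229 and 292 to 326 in CAG150 at day 6 and day 4, against 553 to 596 and 723 to 745 in HM1. These sums were lower at day 6, but most of the 6 tested markers rose with time. In CAG150 3 rose and 1 fell, and in HM1 4 rose and 1 fell. Pluripotency markers (8 of 8) summed to 946 to 1004 and 512 to 569 in CAG150 at day 6 and day 4, against 2227 to 2530.0 and 1534 to 1703 in HM1. Neural progenitor markers (6 of 6) summed to 14189 to 14550.2 and 7573 to 7810.1 in CAG150 at day 6 and day 4, against 12445 to 13037 and 5805 to 6760.0 in HM1. Tested singly at day 6, 1 of these 6 was lower in CAG150 and none was higher. Of 8 trophoblast markers 6 had a probe set and 3 were above the filter, while the defining genes Cdx2, Elf5 and Tpbpa were not, and the 6 summed to 163 to 195 and 80.6 to 109 in CAG150 at day 6 and day 4, against 75.8 to 114 and 97.6 to 125 in HM1. The part of these cell types in the differences below was not tested, and in bulk RNA fewer cells of a type cannot be told apart from less RNA per cell.

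Between the lines, imprinted genes changed in both directions, and the largest differences were decreases. The deepest were of the growth restrainers Grb10 and Cdkn1c at both days, of the transcription factor Plagl1 at day 4, and of the amino acid transporter Slc38a4 at day 6. At day 6, CAG150 cells had more of 6 and less of 9 of the 37 genes, 15 calls against a background of 21.4% of all genes (10.1% higher and 11.2% lower). At day 4 they had more of 5 and less of 8, 13 calls against 15.8% of all genes (7.87% higher and 7.92% lower). The 5 that were higher at day 4 came to 3 without CAG150 day 4 replicate 2 or HM1 day 4 replicate 3, and to 2 without CAG150 day 4 replicate 3. The median log2 difference of the 37 was -0.065 at day 6 and -0.0046 at day 4, against -0.0019 and 0.0051 over all genes. With arrays centred on their medians, 5 were higher and 9 lower at day 6, and 3 higher and 9 lower at day 4, against 811 higher and 1617 lower and 534 higher and 1165 lower genes in all.

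Set side by side, the parental classes were split differently. Of 16 maternally expressed genes 1 rose and 5 fell at day 6 (median -0.13), and 1 rose and 6 fell at day 4 (median -0.19). Of 16 paternally expressed genes 4 rose and 3 fell at day 6 (median 0.0058), and 2 rose and 2 fell at day 4 (median 0.12). The difference between the classes was not tested, and a class does not give the copy used in these cells. Grb10, counted as maternal and lower at both days, is read from the paternal copy in neurons. Of the 5 isoform- or tissue-dependent genes 1 rose and 1 fell at day 6, and 2 rose and 3 did not pass at day 4. The groups did not overlap for 20 of the 37 genes at day 6 and for 21 at day 4, against 38.6% and 34.4% of all genes. Commd1, Inpp5f and Ndn were higher in CAG150 at both days, and Cd81, Cdkn1c, Grb10, H13 and Phlda2 were lower at both days, against 3.79% and 4.63% of all genes. In all, 20 of the 37 passed at 1 day or both, against 28.3% of all genes. Dlk1, Gnas, Igf2r, Mest, Nap1l4, Rian, Snrpn, Tssc4 and Ube3a passed in none of the 5 comparisons by their brightest probe set.

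**Figure D1:**
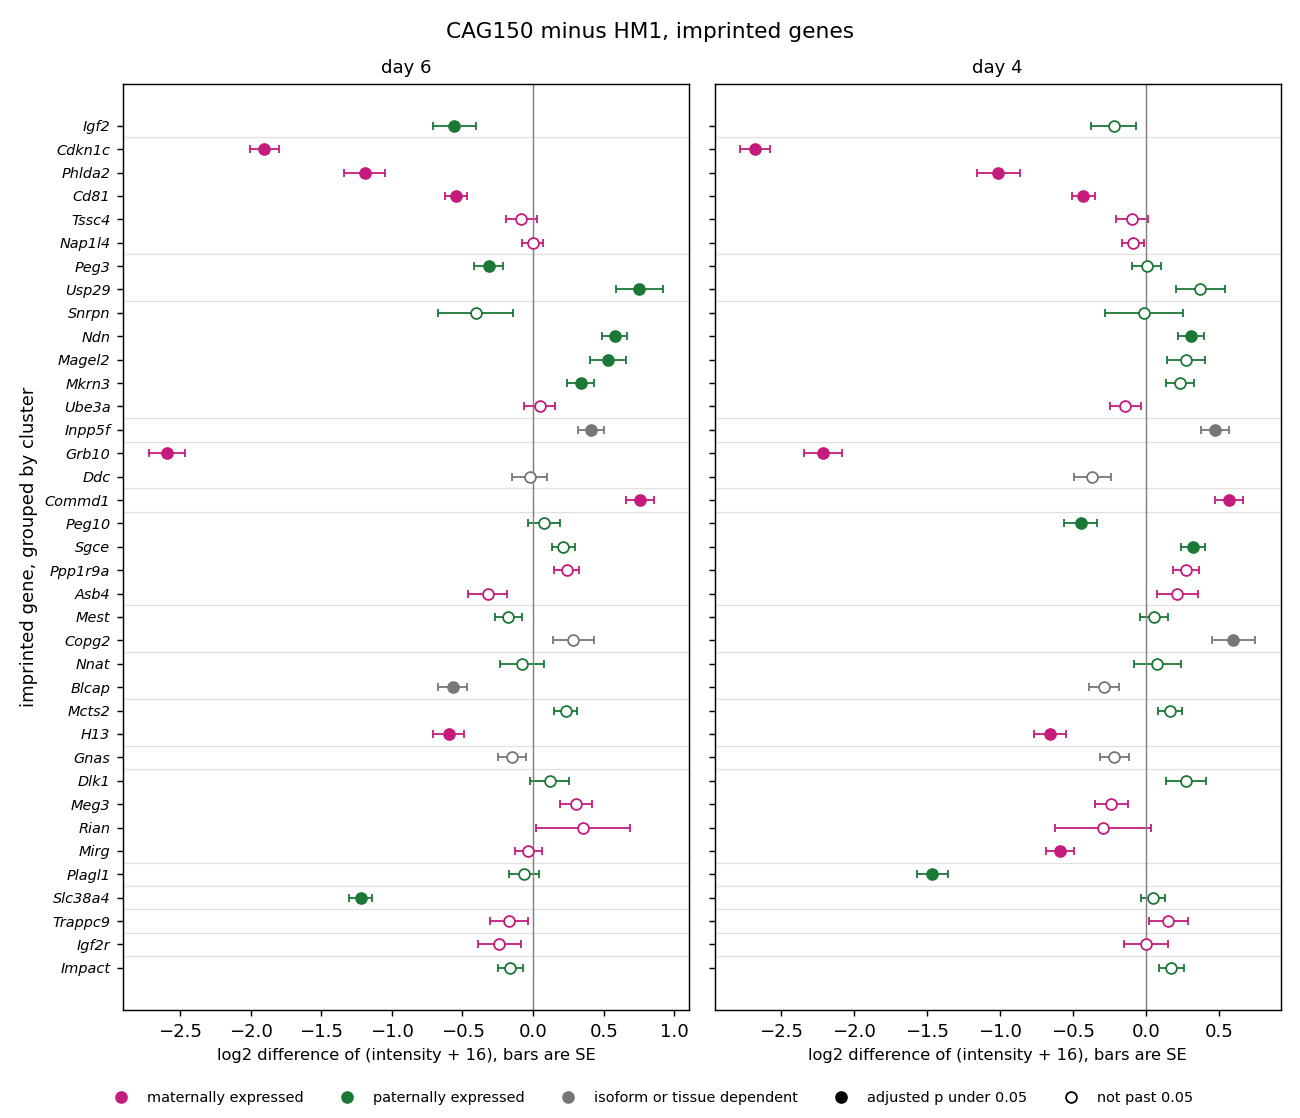
The log2 difference of (intensity + 16) between CAG150 and HM1 is plotted for each of the 37 tested imprinted genes at day 6 (left panel) and day 4 (right panel), with bars for the SE and genes stacked by cluster. Filled points passed an adjusted p under 0.05, and colours give the parental class; Grb10 and Cdkn1c lie farthest to the left at both days.

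Between the days, more imprinted genes rose than fell in either line in the values as deposited. In CAG150 cells 16 of 37 passed, 11 higher and 5 lower at day 6 than at day 4, against a background of 44.4% of all genes (22.5% higher and 21.9% lower). In HM1 cells 18 passed, 11 higher and 7 lower, against 38.9% (20.4% higher and 18.5% lower). The median log2 difference was 0.077 in CAG150 and 0.13 in HM1, against 0.00027 and -0.0042 over all genes. Median centring moved the median of all genes by -0.10 in HM1. With it 9 imprinted genes were higher and 10 lower in CAG150, and 9 higher and 8 lower in HM1, against 1974 higher and 3474 lower and 1750.0 higher and 3085 lower genes in all. Rises outnumbered falls in CAG150 as deposited but not under that scaling. With quantile normalization the counts were 12 and 6 in CAG150 and 14 and 8 in HM1. The days did not overlap for 22 genes in CAG150 and for 20 in HM1, against 55% and 49.1% of all genes. Blcap, Cdkn1c, Ddc, Inpp5f, Mcts2, Nnat, Ppp1r9a and Sgce were higher at day 6 in both lines, and Impact, Magel2, Mirg and Slc38a4 were lower in both, against 15.3% and 13.8% of all genes. Of the paternal class 6 rose and 3 fell in CAG150 and 4 rose and 4 fell in HM1. Of the maternal class 2 rose and 2 fell in CAG150 and 4 rose and 3 fell in HM1. The change with time differed between the lines for 4 imprinted genes (Cdkn1c, Plagl1, Slc38a4 and Mirg), 3 with a positive and 1 with a negative interaction, against a background of 3.61% of all genes (1.58% and 2.03%).

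**Figure D2:**
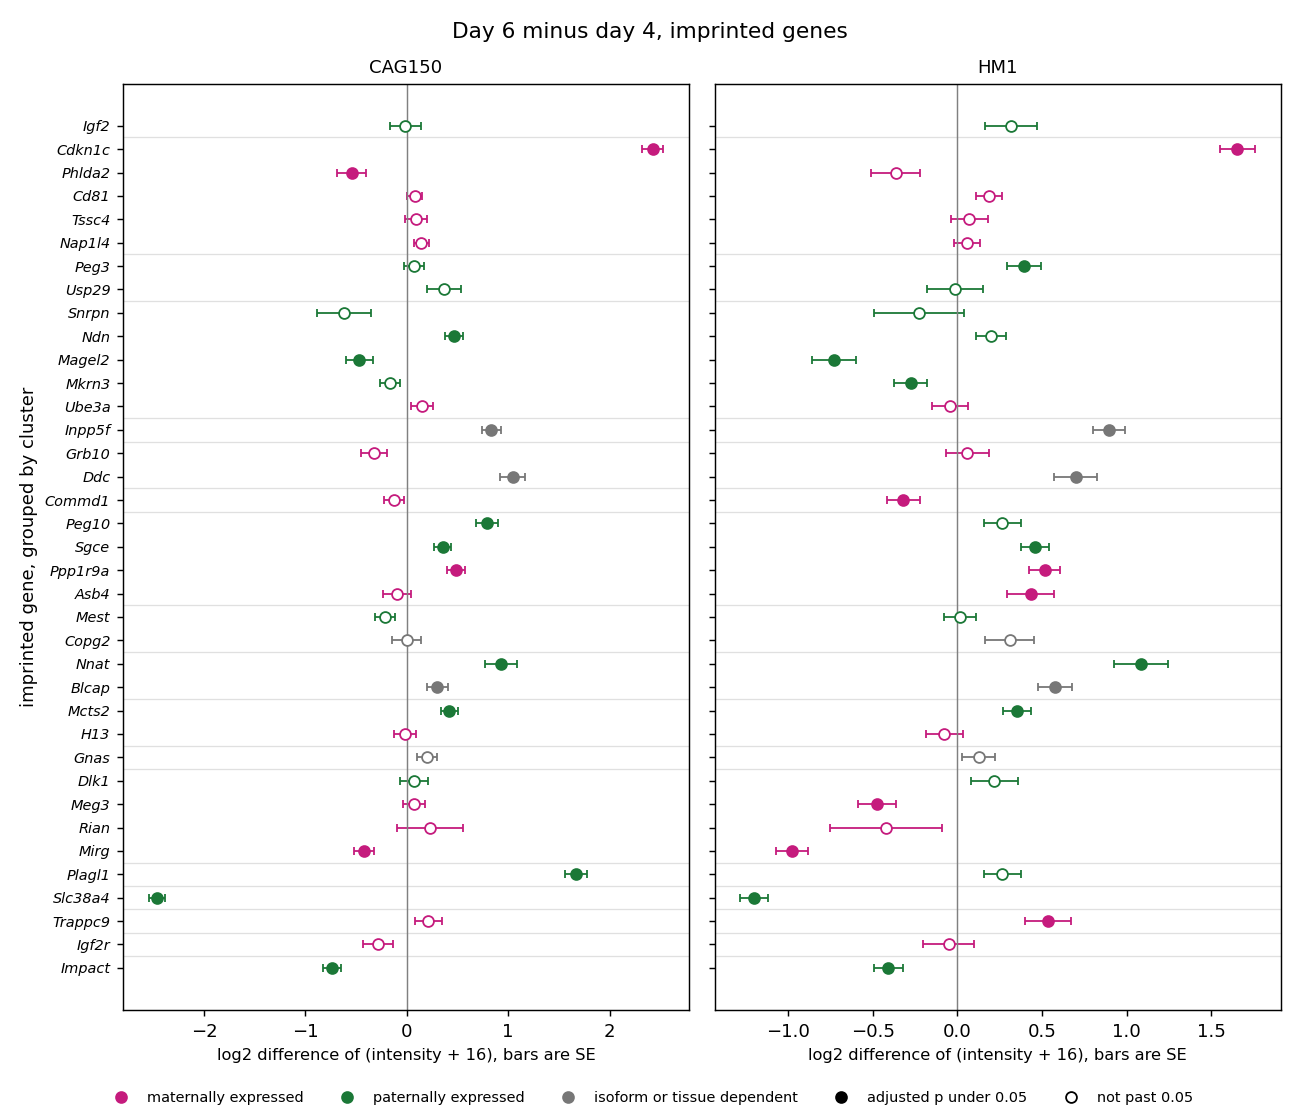
The log2 difference of (intensity + 16) between day 6 and day 4 is plotted for the same 37 genes in CAG150 (left panel) and HM1 (right panel), with bars for the SE. Cdkn1c lies farthest to the right in both panels, while Slc38a4 lies farthest to the left in both.

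The Cdkn1c cluster on distal chromosome 7 holds 7 of the genes, all maternally expressed, and 3 of its 5 tested genes were lower in CAG150 at both days, against 4.63% of all genes. Cdkn1c (chr7:143458339-143461059 in GRCm38.p6) encodes p57, an inhibitor of cyclin-dependent kinases that stops the cell cycle as progenitors differentiate. Cdkn1c had intensities of 641, 651 and 735 in CAG150 at day 6 and 99.1, 111 and 129 at day 4, against 2532, 2449.5 and 2723 in HM1 at day 6 and 854, 828 and 734 at day 4. Cdkn1c rose with time in both lines, and the highest CAG150 sample at day 6 was level with the lowest HM1 sample at day 4. At day 6 the CAG150 level was 3.74-fold lower (-1.90 ± 0.10, adjusted p = 9.2e-08), and at day 4 it was 6.39-fold lower (-2.67 ± 0.10, adjusted p = 1.9e-08). The rise to day 6 was 5.37-fold in CAG150 and 3.15-fold in HM1, and the interaction was 0.77 ± 0.15, adjusted p = 0.011.

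Phlda2, a pleckstrin homology protein that limits placental growth, was dim. Phlda2 read 7.15, 11.97 and 11.9 in CAG150 at day 6 and 27.9, 21.1 and 18.4 at day 4, against 43.2, 53.7 and 36.4 in HM1 at day 6 and 48.6, 74.4 and 63.0 at day 4. The lines did not overlap at either day, with CAG150 lower (-1.19 ± 0.15, adjusted p = 9.6e-05 at day 6, -1.01 ± 0.15, adjusted p = 0.00052 at day 4). At this signal the size depends on the pseudocount: with 1 and 64 in place of 16 the differences were -2.02 and -0.54 at day 6 and -1.42 and -0.54 at day 4. Phlda2 also fell with time in CAG150 (-0.54 ± 0.15, adjusted p = 0.0091), and the difference in HM1 was -0.36 ± 0.15, adjusted p = 0.067. Cd81 measured 1351, 1299.8 and 1318 in CAG150 at day 6 and 1189, 1262 and 1312 at day 4, against 1876, 1978 and 1953 in HM1 at day 6 and 1613, 1808 and 1671 at day 4. Cd81, a tetraspanin of the cell surface, fell in CAG150 with no overlap of the lines (-0.54 ± 0.077, adjusted p = 0.00033 at day 6, -0.43 ± 0.077, adjusted p = 0.0025 at day 4). Tssc4 and Nap1l4, a histone chaperone, differed by -0.098 to -0.0034 between the lines and did not pass. Ascl2, a transcription factor of the placenta, and the transporter Slc22a18 were below the filter.

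Igf2, a fetal growth factor expressed from the paternal copy, lies in the neighbouring H19 cluster. Igf2 had intensities of 144, 115 and 154 in CAG150 at day 6 and 113, 141 and 165 at day 4, against 206, 182 and 242 in HM1 at day 6 and 173, 183 and 139 at day 4. It was lower in CAG150 at day 6 (-0.56 ± 0.15, adjusted p = 0.020), while the lines overlapped at day 4 (-0.22 ± 0.15, adjusted p = 0.35). The day 6 call of Igf2 was lost without CAG150 day 6 replicate 2 or HM1 day 6 replicate 3, with an adjusted p of up to 0.080. As the mean of its probe sets Igf2 at day 6 was -0.22 and did not pass, but that mean takes in a second probe set below the filter (2.63 on average). Igf2r, the maternally expressed receptor that clears Igf2, did not pass by its brightest probe set (-0.24 ± 0.15, adjusted p = 0.30 at day 6). Its other probe set, nearly as bright, fell at day 6 (-0.35 ± 0.11, adjusted p = 0.048).

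Grb10, an adaptor that damps insulin and growth factor receptor signals, showed the largest line difference among the 37 at day 6. Grb10 read 272, 254 and 278 in CAG150 at day 6 and 298, 298 and 437 at day 4, against 1688, 1807 and 1599 in HM1 at day 6 and 1503, 1669 and 1714 at day 4. No HM1 sample came near a CAG150 sample at either day. At day 6 Grb10 was 6.03-fold lower in CAG150 (-2.59 ± 0.13, adjusted p = 5.0e-08), and at day 4 it was 4.63-fold lower (-2.21 ± 0.13, adjusted p = 2.8e-07). Its other probe sets also fell, by -1.65 ± 0.30 and -1.30 ± 0.19 on the log2 scale at day 6 and by -1.30 ± 0.30 and -0.90 ± 0.19 at day 4. With time it did not pass in either line (-0.32 ± 0.13, adjusted p = 0.059 in CAG150, 0.061 ± 0.13, adjusted p = 0.75 in HM1), though 7 alternatives, among them the removal of CAG150 day 4 replicate 1 or 2, gave a fall in CAG150. The neighbouring Ddc, which makes dopamine and serotonin, is imprinted in heart. Ddc measured 79.2, 85.8 and 91.7 in CAG150 at day 6 and 31.4, 38.2 and 30.3 at day 4, against 78.1, 103 and 82.3 in HM1 at day 6 and 51.4, 55.7 and 37.0 at day 4. Ddc did not differ beyond the threshold between the lines (-0.024 ± 0.13, adjusted p = 0.92 at day 6, -0.37 ± 0.13, adjusted p = 0.067 at day 4) and rose with time in both (1.04 ± 0.13, adjusted p = 2.8e-05 in CAG150, 0.70 ± 0.13, adjusted p = 0.00085 in HM1).
Both RefSeq promoter windows of Grb10 (GRCm38.p6, minus strand, 250 bases before to 50 after the start) are shown because they differ widely in CpG pairs, the bases that imprints methylate. CpG pairs are in capitals, 45 in the window at chr11:12037371-12037670 and 9 in that at chr11:12027922-12028221.
Grb10 upstream start: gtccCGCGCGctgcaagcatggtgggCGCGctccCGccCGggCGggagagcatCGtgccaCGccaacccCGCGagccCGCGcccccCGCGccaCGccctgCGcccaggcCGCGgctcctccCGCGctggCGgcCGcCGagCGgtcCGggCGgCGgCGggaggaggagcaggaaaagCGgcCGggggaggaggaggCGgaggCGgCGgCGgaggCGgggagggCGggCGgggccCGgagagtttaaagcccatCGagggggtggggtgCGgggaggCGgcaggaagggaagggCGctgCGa
Grb10 downstream start: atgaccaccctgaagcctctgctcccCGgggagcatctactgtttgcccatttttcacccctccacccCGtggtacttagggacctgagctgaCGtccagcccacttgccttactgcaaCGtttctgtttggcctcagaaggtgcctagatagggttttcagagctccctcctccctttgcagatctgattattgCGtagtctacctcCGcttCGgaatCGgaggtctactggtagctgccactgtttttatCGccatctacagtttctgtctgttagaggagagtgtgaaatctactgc

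Commd1, which takes part in copper handling and NF-kB turnover and is maternally biased in brain, went the other way on the same chromosome. Commd1 had intensities of 1697, 1716 and 1609 in CAG150 at day 6 and 1739.6, 1892 and 1867 at day 4, against 863, 1062 and 1038 in HM1 at day 6 and 1154, 1346 and 1199 at day 4. CAG150 was higher without overlap at both days (0.76 ± 0.10, adjusted p = 0.00014 at day 6, 0.57 ± 0.10, adjusted p = 0.0017 at day 4), and the second probe set rose too (0.69 ± 0.10 and 0.70 ± 0.10). Genes of chromosomes 8 and 11 as a whole were shifted upward in CAG150. The median log2 difference was 0.227 on chromosome 11 and 0.240 on chromosome 8 at day 6, and 0.172 and 0.196 at day 4. On the other 17 autosomes the medians were -0.064 to -0.0085 at day 6 and -0.043 to 0.0034 at day 4. The part of the chromosome 11 shift in the Commd1 difference was not tested, and Grb10 and Ddc lie on the same chromosome. Commd1 fell with time in HM1 (-0.32 ± 0.10, adjusted p = 0.020). The HM1 call of Commd1 was lost without HM1 day 6 replicate 1 or HM1 day 4 replicate 2, with an adjusted p of up to 0.093. The second probe set fell with time in both lines (-0.33 ± 0.10 in CAG150, -0.32 ± 0.10 in HM1).

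Plagl1, a zinc finger protein that curbs proliferation, was the paternally expressed gene with the largest line difference at day 4. Plagl1 read 2631, 2776 and 3104 in CAG150 at day 6 and 842, 947 and 859 at day 4, against 3013, 2598 and 3319 in HM1 at day 6 and 2683, 2299 and 2412 at day 4. All 3 CAG150 samples at day 4 lay below every other sample. Plagl1 was 2.76-fold lower in CAG150 at day 4 (-1.46 ± 0.11, adjusted p = 1.9e-06), while the lines overlapped at day 6 (-0.065 ± 0.11, adjusted p = 0.72). The rise with time was 3.17-fold in CAG150 (1.67 ± 0.11, adjusted p = 1.3e-07), against 0.27 ± 0.11, adjusted p = 0.067 in HM1, an interaction of 1.40 ± 0.15, adjusted p = 0.00037. A second probe set gave the same calls (-0.62 ± 0.14 at day 4, 0.90 ± 0.14 with time in CAG150, interaction 0.86 ± 0.19).
The RefSeq window of Plagl1 (GRCm38.p6, chr10:13090582-13090881, plus strand) has 26 CpG pairs, in capitals. It is shown because this gene had the largest interaction of the 37.
Plagl1: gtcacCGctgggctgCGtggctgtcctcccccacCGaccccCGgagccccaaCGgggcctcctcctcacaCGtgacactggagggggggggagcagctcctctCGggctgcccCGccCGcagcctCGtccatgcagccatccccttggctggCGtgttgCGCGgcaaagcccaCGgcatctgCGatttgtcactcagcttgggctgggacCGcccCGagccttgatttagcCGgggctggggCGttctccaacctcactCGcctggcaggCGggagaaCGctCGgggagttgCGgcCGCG

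Slc38a4, a sodium-coupled amino acid transporter expressed from the paternal copy, changed in the other direction with time. Slc38a4 measured 47.3, 52.9 and 44.5 in CAG150 at day 6 and 348, 336 and 331 at day 4, against 138, 123 and 139.8 in HM1 at day 6 and 329, 318 and 336 at day 4. The lines overlapped at day 4 and were wide apart at day 6. Slc38a4 fell 5.52-fold in CAG150 (-2.46 ± 0.081, adjusted p = 9.2e-10) and 2.30-fold in HM1 (-1.20 ± 0.081, adjusted p = 2.7e-07), and the interaction was -1.27 ± 0.11, adjusted p = 0.00011. At day 6 the CAG150 level was 2.33-fold lower (-1.22 ± 0.081, adjusted p = 5.6e-07), with 0.044 ± 0.081, adjusted p = 0.76 at day 4. Its other probe set passed in the same comparisons, with an interaction of -1.29 ± 0.18. Its 3 promoter windows hold 5 CpG pairs each.

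**Figure D3:**
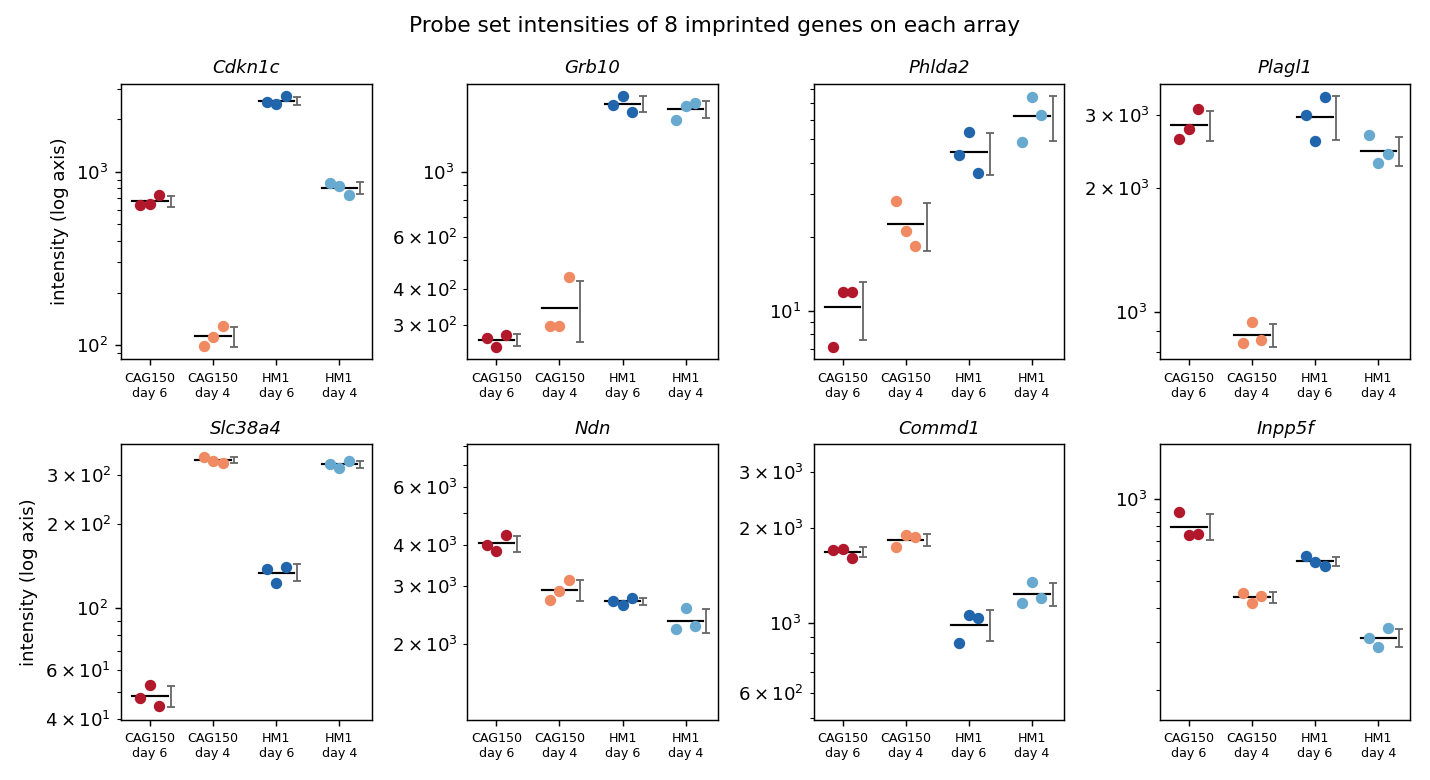
Intensity on each of the 12 arrays, on a log axis, is plotted for 8 imprinted genes, with points for single arrays, a line at the group mean and a bar of 1 SD on either side of it. Plagl1 is low only in CAG150 at day 4 among the 4 groups, and Slc38a4 is lowest in CAG150 at day 6.

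The Peg3 cluster on proximal chromosome 7 holds Peg3 and Usp29, paternally expressed genes read outward from a shared start region, and the maternally expressed Zim1, which was below the filter. Peg3 had intensities of 1237, 1303 and 1266 in CAG150 at day 6 and 1206, 1336 and 1085 at day 4, against 1552, 1566 and 1629 in HM1 at day 6 and 1286, 1284 and 1050.3 at day 4. Peg3, a zinc finger protein that affects growth, was lower in CAG150 at day 6 (-0.31 ± 0.10, adjusted p = 0.041), and the lines overlapped at day 4 (0.0037 ± 0.10, adjusted p = 0.99). The day 6 call of Peg3 was lost without CAG150 day 6 replicate 1, 2 or 3, CAG150 day 4 replicate 1 or HM1 day 6 replicate 1, 2 or 3, with an adjusted p of up to 0.11. It rose with time in HM1 (0.39 ± 0.10, adjusted p = 0.0080). A second Peg3 probe set gave 0.039 ± 0.30 at day 6 and 0.92 ± 0.30 at day 4, neither past the threshold, and rose in HM1 (0.92 ± 0.30). Usp29 read 25.5, 21.1 and 27.2 in CAG150 at day 6 and 10.3, 20.2 and 16.2 at day 4, against 8.71, 4.56 and 11.3 in HM1 at day 6 and 5.36, 15.7 and 5.05 at day 4. Usp29, a deubiquitinase, was higher in CAG150 at day 6 (0.75 ± 0.17, adjusted p = 0.0068) with no overlap. Its groups were near or below the filter, and with pseudocounts of 1 and 64 the difference was 1.55 and 0.50, the last from another probe set that was then brightest. With that second probe set the difference at day 6 was 1.08 ± 0.18. That probe set also rose with time, by 1.53 ± 0.18 in CAG150 and 0.71 ± 0.18 in HM1, where the first gave 0.37 ± 0.17 and -0.013 ± 0.17 and did not pass. By their brightest probe sets, and with the Peg3 call easily lost, Peg3 and Usp29 differed between the lines in opposite directions at day 6.
Their RefSeq windows (GRCm38.p6) are shown because they overlap by 263 bases on opposite strands. Peg3 is at chr7:6730370-6730669 on the minus strand with 13 CpG pairs and Usp29 at chr7:6730333-6730632 on the plus strand with 17, in capitals.
Peg3: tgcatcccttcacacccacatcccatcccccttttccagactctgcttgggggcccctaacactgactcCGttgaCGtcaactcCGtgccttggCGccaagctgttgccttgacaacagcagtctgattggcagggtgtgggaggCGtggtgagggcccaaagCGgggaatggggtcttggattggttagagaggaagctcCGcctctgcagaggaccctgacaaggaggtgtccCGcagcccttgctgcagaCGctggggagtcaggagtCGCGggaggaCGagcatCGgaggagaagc
Usp29: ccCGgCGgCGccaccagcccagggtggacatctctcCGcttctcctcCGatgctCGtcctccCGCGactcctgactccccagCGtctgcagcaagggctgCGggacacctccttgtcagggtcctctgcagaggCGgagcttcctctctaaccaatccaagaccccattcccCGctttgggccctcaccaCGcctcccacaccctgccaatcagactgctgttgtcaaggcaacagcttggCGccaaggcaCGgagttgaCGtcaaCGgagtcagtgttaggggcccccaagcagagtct

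The Snrpn cluster on central chromosome 7 matches the human Prader-Willi and Angelman region, and 3 of its 4 paternally expressed genes rose in CAG150 at day 6, against 10.1% of all genes. Ndn encodes necdin, which restrains the cell cycle in new neurons. Ndn measured 3992, 3837 and 4279 in CAG150 at day 6 and 2716, 2893 and 3128 at day 4, against 2699.7, 2624 and 2758 in HM1 at day 6 and 2211, 2578 and 2265 at day 4. At day 6 Ndn was higher in CAG150 (0.58 ± 0.089, adjusted p = 0.00058), as it was at day 4 (0.31 ± 0.089, adjusted p = 0.033), and it rose with time in CAG150 (0.47 ± 0.089, adjusted p = 0.00090). All 5 of its probe sets above the filter were higher at day 6, by 0.51 to 0.71. The day 4 call of Ndn was lost without CAG150 day 4 replicate 2 or 3 or HM1 day 4 replicate 1 or 3, with an adjusted p of up to 0.12. Magel2 had intensities of 117, 83.8 and 115 in CAG150 at day 6 and 170.2, 142 and 140.0 at day 4, against 73.6, 69.8 and 59.0 in HM1 at day 6 and 139, 112 and 116 at day 4. Magel2, a partner of ubiquitin ligases, was higher in CAG150 at day 6 (0.53 ± 0.13, adjusted p = 0.012), with 0.27 ± 0.13, adjusted p = 0.19 at day 4. It fell with time in both lines (-0.47 ± 0.13, adjusted p = 0.011 in CAG150, -0.73 ± 0.13, adjusted p = 0.00079 in HM1), the reverse of its neighbour Ndn in CAG150. Without CAG150 day 6 replicate 3 its adjusted p was 0.051. Mkrn3 read 435, 407 and 422 in CAG150 at day 6 and 511, 477 and 438 at day 4, against 321, 371 and 302 in HM1 at day 6 and 405, 433 and 372 at day 4. Mkrn3, a ubiquitin ligase known in humans for its part in the timing of puberty, was higher in CAG150 at day 6 (0.34 ± 0.10, adjusted p = 0.026) and fell with time in HM1 (-0.27 ± 0.10, adjusted p = 0.039). The day 6 call of Mkrn3 was lost without CAG150 day 6 replicate 1 or 3 or HM1 day 6 replicate 1 or 3, with an adjusted p of up to 0.10. The HM1 call of Mkrn3 was lost without CAG150 day 6 replicate 3, CAG150 day 4 replicate 2, HM1 day 6 replicate 1 or 3 or HM1 day 4 replicate 1 or 2, with an adjusted p of up to 0.14. Ube3a, the ubiquitin ligase lost in Angelman syndrome, was 1329 to 1784 in all 12 samples and did not pass (0.047 ± 0.11, adjusted p = 0.80 at day 6). Among its 5 other probe sets, a dim one rose at day 6 (0.68 ± 0.18). Snrpn had 1 probe set annotated to it alone, at 4.62 to 51.2, and did not pass. Its brighter probe sets also carry the name Snurf and were not used.

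The Dlk1-Dio3 cluster on chromosome 12 carries the paternally expressed Dlk1 and the maternally expressed noncoding RNAs Meg3, Rian and Mirg, which are thought to be read from one long transcription unit. Mirg hosts a cluster of miRNAs. Mirg measured 93.0, 109 and 101 in CAG150 at day 6 and 139, 159.9 and 125 at day 4, against 96.9, 112 and 103 in HM1 at day 6 and 215, 227 and 217 at day 4. It fell with time in both lines (-0.42 ± 0.10, adjusted p = 0.0033 in CAG150, -0.98 ± 0.10, adjusted p = 7.2e-06 in HM1). It was lower in CAG150 at day 4 (-0.59 ± 0.10, adjusted p = 0.0013) and level at day 6 (-0.035 ± 0.10, adjusted p = 0.84). The interaction was 0.55 ± 0.14, adjusted p = 0.044. The interaction call of Mirg was lost without CAG150 day 6 replicate 2 or 3, CAG150 day 4 replicate 1 or 3, HM1 day 6 replicate 1 or 3 or HM1 day 4 replicate 1, 2 or 3, with an adjusted p of up to 0.099. The second Mirg probe set fell with time in both lines (-0.51 ± 0.14 and -0.61 ± 0.14) but its interaction was 0.092 ± 0.20 and did not pass.
RefSeq places 19 mature miRNAs of 10 hairpins inside Mirg (GRCm38.p6, chr12:109734981-109749458, plus strand). The miRNAs themselves were not measured. A pair that shares a seed, bases 2 to 8 in capitals, is shown with 2 others of the cluster.
miR-453: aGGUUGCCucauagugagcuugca
miR-496a-5p: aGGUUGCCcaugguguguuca
miR-377-3p: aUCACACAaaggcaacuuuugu
miR-410-3p: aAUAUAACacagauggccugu

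Meg3, a noncoding RNA that acts on p53 and Polycomb, had 11 probe sets above the filter, and they disagreed. Meg3 had intensities of 1208, 1384 and 1164 in CAG150 at day 6 and 1243, 1262 and 1073 at day 4, against 966, 1014 and 1047 in HM1 at day 6 and 1635, 1272 and 1336 at day 4. The brightest fell with time in HM1 (-0.47 ± 0.11, adjusted p = 0.0047) and did not pass in CAG150 (0.069 ± 0.11, adjusted p = 0.64). The interaction was 0.54 ± 0.16, adjusted p = 0.085, and did not pass. In CAG150, 5 other probe sets rose, by 0.68 to 1.31, and the rest did not pass. In HM1, 2 others fell, by -0.53 ± 0.15 and -0.73 ± 0.18, while 2 rose, by 0.79 ± 0.16 and 0.48 ± 0.11. The 5 that rose in CAG150 are among the 6 dimmest. Between the lines at day 6, 4 probe sets were higher in CAG150, by 0.59 to 0.93, but the brightest was not (0.30 ± 0.11, adjusted p = 0.071). No direction is given here for Meg3 as a whole. Rian, which hosts small nucleolar RNAs, was uneven within groups. Rian read 512, 341 and 434 in CAG150 at day 6 and 333, 427 and 326 at day 4, against 271, 647 and 198 in HM1 at day 6 and 343, 437 and 585 at day 4. Its SE was 0.33 and it did not pass (0.35 ± 0.33, adjusted p = 0.50 at day 6), with HM1 day 6 replicate 2 above every other sample. Dlk1, a membrane ligand related to Notch ligands, was 57.4 to 99.5 in all samples and did not pass (0.12 ± 0.14, adjusted p = 0.59 at day 6, 0.27 ± 0.14, adjusted p = 0.21 at day 4).

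**Figure D4:**
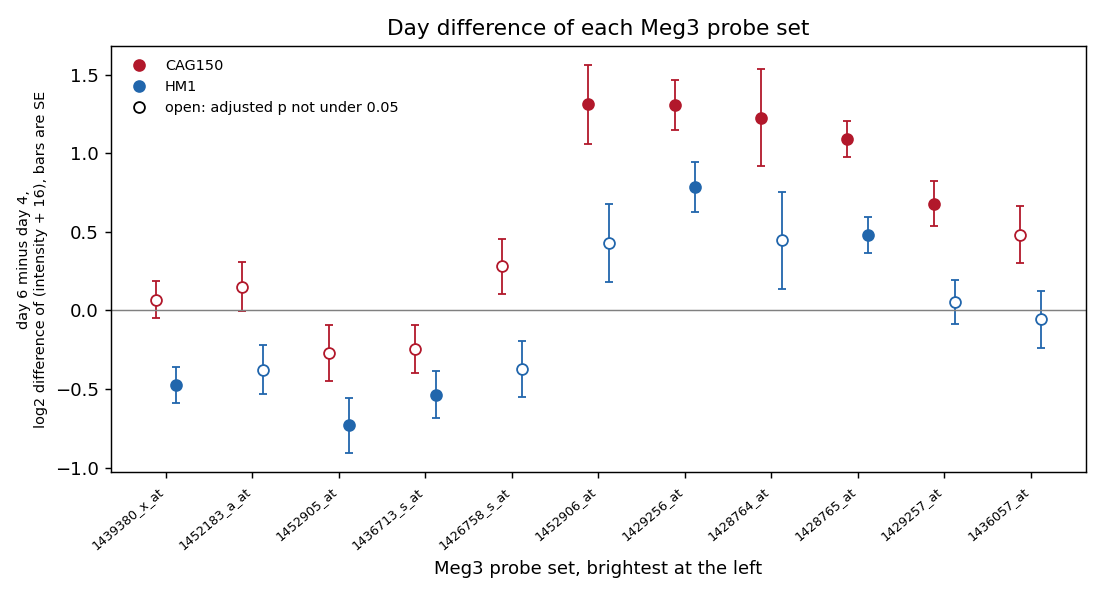
The log2 difference of (intensity + 16) between day 6 and day 4 is plotted for each of 11 Meg3 probe sets in CAG150 and in HM1, with the brightest probe set at the left and bars for the SE. In each line the 6 dimmest probe sets lie above the 5 brightest.

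The Peg10 cluster on chromosome 6 changed mainly with time. Peg10 measured 39.4, 44.7 and 37.4 in CAG150 at day 6 and 14.3, 18.0 and 17.4 at day 4, against 31.6, 38.7 and 42.7 in HM1 at day 6 and 30.1, 33.1 and 22.8 at day 4. Peg10, a gene derived from a retrotransposon and needed for the placenta, rose with time in CAG150 (0.79 ± 0.11, adjusted p = 8.8e-05) and was lower in CAG150 at day 4 (-0.45 ± 0.11, adjusted p = 0.015). The day 4 call of Peg10 was lost without CAG150 day 4 replicate 1 or HM1 day 4 replicate 2, with an adjusted p of up to 0.062. Sgce had intensities of 926, 885 and 851 in CAG150 at day 6 and 635, 728 and 710.5 at day 4, against 709, 777 and 802 in HM1 at day 6 and 571, 542 and 538 at day 4. Sgce, a sarcoglycan whose human gene is mutated in a dystonia, rose with time in both lines (0.35 ± 0.084, adjusted p = 0.0042 in CAG150, 0.46 ± 0.084, adjusted p = 0.00095 in HM1) and was higher in CAG150 at day 4 (0.32 ± 0.084, adjusted p = 0.022). The day 4 call of Sgce was lost without CAG150 day 4 replicate 2 or 3 or HM1 day 4 replicate 2 or 3, with an adjusted p of up to 0.085. Its dim second probe set did not pass with time but was higher in CAG150 at day 6 (0.89 ± 0.25). Ppp1r9a, neurabin, an actin-binding protein of synapses, rose with time in both lines (0.49 ± 0.089, adjusted p = 0.00072 in CAG150, 0.52 ± 0.089, adjusted p = 0.00062 in HM1). A second Ppp1r9a probe set was also higher in CAG150, by 0.35 ± 0.10 at day 6 and 0.47 ± 0.10 at day 4, where the brightest did not pass. Asb4 was near the filter and rose with time in HM1 (0.43 ± 0.14, adjusted p = 0.027), where its other probe set gave -0.40 ± 0.24 and did not pass. The HM1 call of Asb4 was lost without HM1 day 6 replicate 1 or 2 or HM1 day 4 replicate 2, with an adjusted p of up to 0.098.

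Mest, a paternally expressed hydrolase, was the brightest of the imprinted genes with 6308 to 8486 in all samples and did not pass (-0.18 ± 0.10, adjusted p = 0.22 at day 6, -0.21 ± 0.10, adjusted p = 0.089 with time in CAG150). Copg2, a coat protein of Golgi vesicles that overlaps Mest, was higher in CAG150 at day 4 (0.60 ± 0.15, adjusted p = 0.015). Copg2 read 425, 403 and 484 in CAG150 at day 6 and 393, 441 and 479.8 at day 4, against 389.7, 391 and 293 in HM1 at day 6 and 324, 227 and 309 at day 4. The day 4 call of Copg2 was lost without CAG150 day 4 replicate 3 or HM1 day 4 replicate 2, with an adjusted p of up to 0.061. Nnat, a membrane proteolipid of developing brain, rose with time in both lines. Nnat measured 3575, 4969 and 4356 in CAG150 at day 6 and 2426, 2351 and 1935 at day 4, against 4979, 3767 and 4857 in HM1 at day 6 and 1876, 2544 and 1971 at day 4. The day 6 samples were all above the day 4 samples (0.93 ± 0.16, adjusted p = 0.00042 in CAG150, 1.09 ± 0.16, adjusted p = 0.00017 in HM1), and the lines overlapped at each day. Blcap, the gene that surrounds Nnat, was lower in CAG150 at day 6 (-0.57 ± 0.10, adjusted p = 0.0019). Blcap had intensities of 276, 240.4 and 279 in CAG150 at day 6 and 189.7, 205 and 243 at day 4, against 362, 424 and 417 in HM1 at day 6 and 259, 269 and 261 at day 4. Blcap rose with time in HM1 (0.58 ± 0.10, adjusted p = 0.00078) and in CAG150 (0.30 ± 0.10, adjusted p = 0.030). The CAG150 call of Blcap was lost without CAG150 day 6 replicate 1 or 3 or CAG150 day 4 replicate 1 or 2, with an adjusted p of up to 0.12.

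H13, a signal peptide peptidase, surrounds Mcts2, whose paternal expression shortens H13 transcripts. H13 read 153, 172 and 183 in CAG150 at day 6 and 146, 181 and 189 at day 4, against 263, 241 and 290.1 in HM1 at day 6 and 300.4, 267 and 271 at day 4. H13 was lower in CAG150 at both days by its brightest probe set (-0.60 ± 0.11, adjusted p = 0.0020 at day 6, -0.66 ± 0.11, adjusted p = 0.0015 at day 4). Its 5 other probe sets, with -0.60 to 0.27 at day 6, did not pass between the lines. As the mean of the probe sets H13 at day 6 was -0.099 and did not pass. Mcts2 rose with time in both lines (0.42 ± 0.083, adjusted p = 0.0012 in CAG150, 0.35 ± 0.083, adjusted p = 0.0049 in HM1) and did not pass between them (0.23 ± 0.083, adjusted p = 0.067 at day 6). Inpp5f measured 894, 739.9 and 747 in CAG150 at day 6 and 453, 415 and 442 at day 4, against 617, 589 and 569 in HM1 at day 6 and 309, 288 and 336 at day 4. Inpp5f, a phosphoinositide phosphatase with an imprinted brain isoform, was higher in CAG150 at both days (0.41 ± 0.094, adjusted p = 0.0082 at day 6, 0.47 ± 0.094, adjusted p = 0.0049 at day 4) and rose with time in both lines (0.83 ± 0.094, adjusted p = 1.6e-05 in CAG150, 0.90 ± 0.094, adjusted p = 1.2e-05 in HM1). Its second probe set was 0.075 ± 0.12 at day 6 and 0.72 ± 0.12 at day 4, and only the day 4 difference passed. Gnas, the stimulatory G protein alpha subunit, was 3468 to 4935 in all samples and did not pass (-0.15 ± 0.10, adjusted p = 0.33 at day 6).

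Impact, a regulator of translation under amino acid shortage that is plentiful in neurons, fell with time in both lines. Impact had intensities of 798, 726 and 726 in CAG150 at day 6 and 1287, 1247 and 1251 at day 4, against 789.6, 805 and 931 in HM1 at day 6 and 1119, 1177 and 1061 at day 4. The days did not overlap in either line (-0.74 ± 0.086, adjusted p = 2.1e-05 in CAG150, -0.41 ± 0.086, adjusted p = 0.0026 in HM1), while the lines did not differ beyond the threshold (-0.16 ± 0.086, adjusted p = 0.21 at day 6, 0.17 ± 0.086, adjusted p = 0.21 at day 4). Trappc9, a vesicle tethering factor, rose with time in HM1 (0.54 ± 0.13, adjusted p = 0.0074), with 0.21 ± 0.13, adjusted p = 0.22 in CAG150. As the mean of probe sets the HM1 difference was -0.20 for Impact and 0.27 for Trappc9, and neither passed (adjusted p = 0.21 and 0.11). The Impact mean takes in a probe set below the filter, at 7.56 on average.

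Across RefSeq promoter windows of 300 bases, 37 of the 46 genes had 56 windows, with a median of 15 CpG pairs against 7 over all 32851 windows. The 21 windows of maternally expressed genes had a median of 18, and the 26 of paternally expressed genes 10.5. These are medians over windows, not genes. Snrpn and Igf2 have 4 windows each and Slc38a4 has 3, while maternally expressed genes such as Grb10 have up to 2. A difference between the classes was not tested. The hexamer TGCCGC, which the imprint protector Zfp57 binds when methylated, was searched on both strands, and every match holds a CpG pair. It was in 12 of the 56 windows (21.4%) and in 11.6% of all windows. No share matched for CpG pairs was computed, so the 2 shares cannot be read as an excess of the hexamer beyond CpG content. Among the 12, the Mest windows at chr6:30737800-30738099 and chr6:30737803-30738102 nearly coincide. The windows with it belonged to 11 genes, among them Grb10, by its upstream start, and Plagl1, but not to Peg3, Usp29, Phlda2 or Slc38a4. A match is only a run of letters, and the control regions of many clusters lie outside these windows.

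Of 21 genes that set, protect or can remove imprints 20 were tested, and their shares of calls between the lines were near those of all genes. Between the lines 1 rose and 3 fell at day 6 (20% called, against 21.4% of all genes), and 1 rose and 2 fell at day 4 (15%, against 15.8%), with a median of -0.088 at day 6. Dnmt3l, the cofactor of imprint methylation in germ cells, averaged 21.5 ± 4.09 in CAG150 and 82.1 ± 2.72 in HM1 (SD, n = 3 each) at day 6 (-1.39 ± 0.10, adjusted p = 1.6e-06), and fell likewise at day 4 (-1.28 ± 0.10, adjusted p = 4.9e-06). Dnmt3b, a de novo DNA methyltransferase, averaged 434 ± 29.8 in CAG150 and 921 ± 232 in HM1 (SD, n = 3 each) at day 6 (-1.03 ± 0.18, adjusted p = 0.0013). Suz12, a Polycomb subunit, was higher in CAG150 at both days (0.66 ± 0.12, adjusted p = 0.0024 at day 6). Dnmt3b and Dnmt3l are also genes of pluripotent cells, whose markers were lower in CAG150, and the part of those cells was not tested. With time 4 rose and 6 fell in CAG150 (50%, against 44.4% of all genes), and 5 rose and 5 fell in HM1 (50%, against 38.9%). Dnmt3b fell in both lines (-1.41 ± 0.18, adjusted p = 3.9e-05 in CAG150, -1.17 ± 0.18, adjusted p = 0.00024 in HM1), and Tet2, which oxidises methylcytosine, rose in both (1.13 ± 0.15, adjusted p = 7.0e-05 in CAG150, 0.78 ± 0.15, adjusted p = 0.0016 in HM1). Uhrf1, the maintenance factor that recruits Dnmt1, fell in both (-0.65 ± 0.11, adjusted p = 0.00029 in CAG150, -0.57 ± 0.11, adjusted p = 0.0010 in HM1).

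Of 36 other imprinted genes 30 had a probe set and 18 were tested. Between the lines 1 rose and 1 fell at each day (11.1%, against 21.4% of all genes at day 6 and 15.8% at day 4). The gene that rose was Nap1l5, a paternally expressed histone chaperone relative of neural tissue, which averaged 497 ± 138 in CAG150 and 152 ± 26.1 in HM1 (SD, n = 3 each) at day 6 (1.59 ± 0.17, adjusted p = 3.5e-05), with 0.95 ± 0.17, adjusted p = 0.0025 at day 4. With time 4 rose and 5 fell in CAG150 (50%, against 44.4% of all genes) and 4 rose and 3 fell in HM1 (38.9%, the same as over all genes). Nap1l5 rose in both lines (1.98 ± 0.17, adjusted p = 1.7e-06 in CAG150, 1.34 ± 0.17, adjusted p = 5.7e-05 in HM1), and Gatm, which makes the precursor of creatine, fell in both (-1.18 ± 0.11, adjusted p = 3.3e-06 in CAG150, -1.26 ± 0.11, adjusted p = 2.7e-06 in HM1). Pon2, a paraoxonase, rose in both (0.66 ± 0.14, adjusted p = 0.0019 in CAG150, 1.24 ± 0.14, adjusted p = 1.9e-05 in HM1).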

How the data were processed

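The values are intensities on a linear scale, deposited by the authors with each array scaled to the same mean. Computed from the deposited values, that mean is 150 after trimming 2% at either end. Software names were not given in the sources used here. The 64 control probe sets among 45101 were dropped. GEO's platform annotation gives 34945 of the rest 1 gene symbol, 932 several and 9160 none here.

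Values were transformed as log2(intensity + 16). Each gene was represented by its brightest probe set and tested where the mean lay above the 40th percentile of probe sets. A mean for each of 4 groups was fitted to 12 arrays with limma 3.58.1 (lmFit, eBayes; R 4.3.3), with 5 contrasts and Benjamini-Hochberg adjustment over all genes. The same fit was made on every probe set above the filter, adjusted over these. The fit was tested on simulated data.

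Every member is accounted for by cluster and parental class, with values on each array mostly for those that passed. The members, lists, rules and alternatives were chosen with earlier results of these data known. The alternatives were 2 other scalings, 2 other filters, 2 other pseudocounts, 2 other treatments of probe sets, an intensity trend, fits of only the groups compared, a replicate block, and each array left out in turn. Promoters and miRNAs are from RefSeq tables for GRCm38.p6, which held windows for 37 of the genes.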

Additional observations from a re-analysis of the deposited data

Results flagged for a closer look

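The change from day 4 to day 6 differed between the lines for 4 imprinted genes, by the interaction term of the fit over all genes (CAG150 minus HM1 in the day difference). Plagl1 had an interaction of 1.40 on the log2 scale (adjusted p = 0.00037), with the larger rise in CAG150 and the lower day 4 level there. Slc38a4 had -1.27 (adjusted p = 0.00011), with the larger fall in CAG150. Cdkn1c had 0.77 (adjusted p = 0.011), with rises in both lines. Mirg had 0.55 (adjusted p = 0.044), with falls in both lines and the larger one in HM1. This last call was fragile, lost under 15 of 22 alternatives, 9 of them with a single array left out. The second Mirg probe set did not pass in the interaction.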

How the results depend on the processing

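Of 66 calls over the 37 imprinted genes and 5 comparisons, 43 held under every alternative and each array left out, and 23 were lost at least once. Calls of 13 genes or comparisons among them were lost without a single array. Another 33 results that had missed the threshold passed under at least 1 alternative. Several uncalled results changed sign without passing, such as Impact between the lines at day 6 (-0.16 as reported, up to 0.16). In 2 uncalled results an alternative passed with the opposite sign. Usp29 between the days in HM1 was 0.24 with a pseudocount of 64, which makes another probe set the brightest, and H13 between the days in CAG150 was 0.31 as the mean of its probe sets. That mean takes in every probe set of a gene, also those below the filter, such as the second of Igf2 (2.63 on average). With it 14 calls were lost. They were those of H13, Igf2, Peg3 and Inpp5f (0.19) at day 6 and of Ndn (0.14) at day 4. Between the days they were those of Ppp1r9a and Sgce in both lines, and of Asb4, Impact (-0.20), Meg3 (-0.032) and Trappc9 (0.27) in HM1. The last was the Mirg interaction. The part of probe sets below the filter in these losses was not tested. Median centring lost 8 calls and no other alternative on all arrays more than 5. Peg10 at day 4 was -0.20 with a pseudocount of 64 and did not pass. The Mirg interaction also did not pass with no filter, a pseudocount of 1, either other scaling or probe sets tested singly.

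Counts of calls in both directions together stayed within 1.5 times, except for the interaction over all genes: 443 as reported, 295 with no filter, 259 with probe sets tested singly, and 270 to 362 with an array left out, the lowest without CAG150 day 6 replicate 3, with 295 also without CAG150 day 4 replicate 2. Counts by direction moved more with median centring, to 10 imprinted genes lower with time in CAG150 (5 as deposited) and 3 higher between the lines at day 4 (5 as deposited), and to 811 and 534 of all genes higher between the lines at day 6 and day 4 (1243 and 967 as deposited). The 967 came to 623 without CAG150 day 4 replicate 2. Imprinted genes higher with time in HM1 came to 7 as the mean of probe sets (11 with the brightest), those higher between the lines at day 4 to 3 with only the groups compared, and positive interactions to 5 with a pseudocount of 64 (3 with 16). With an array left out, imprinted genes called ranged from 12 to 16 and from 11 to 14 between the lines at day 6 and day 4, 15 to 17 and 16 to 20 between the days in CAG150 and HM1, and 3 to 4 in the interaction. Over the alternatives on all arrays they ranged from 13 to 17 and from 11 to 15 between the lines, 15 to 20 and 12 to 22 between the days, and 3 to 6 in the interaction. Deviations of samples with the same replicate number were weakly correlated at most (-0.13 to 0.12). Of 6 arrays per comparison, those closest to their own number were 5 between the days in CAG150 and 4 between the lines at day 4. They were 2 between the lines at day 6 and 2 between the days in HM1. With 3 arrays per group, these values cannot decide whether the numbers pair samples. A replicate block gave 15 and 14 imprinted genes between the lines at day 6 and day 4. Signal near background limits Usp29, Asb4, Phlda2 and Snrpn most.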
